A study of Mus musculus with 26 samples.

Results

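The meibomian gland, the source of the lipid of the tear film, was compared with the lacrimal gland, the source of its water and protein. The 12 arrays compared, 6 of each gland, were those whose titles name these glands, out of 26 arrays of 5 exocrine glands. All mice were BALB/c, with no genetic change or treatment named, and no source used here gives their age. The 4 groups were female meibomian, male meibomian, female lacrimal and male lacrimal gland, each with 3 pools lettered A, B and C. Each array held RNA of 10 glands pooled from 5 animals, so the replicate is the pool and the spread between single mice is not seen. Intensities are in the scaled units of the deposited table and differences are log2 of meibomian over lacrimal, with both sexes weighted equally, ± the standard error.

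Meibomian glands are large sebaceous glands of the eyelid rim. Their acinar cells fill with wax esters, cholesteryl esters and very long acyl chains, then burst into a duct lined by stratified, keratinizing epithelium. Lacrimal acinar cells instead make proteins on a dense endoplasmic reticulum, pack them into granules and release them with salt and water when nerves stimulate them. Lipid enzymes and keratins are thus the textbook products of the first gland, and lactoperoxidase, odorant-binding-like proteins and other secreted proteins those of the second.

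The labels were checked against 1 marker gene for each gland. Elovl4, the elongase that makes the longest acyl chains of meibum, lay between 94.8 and 154 with a median of 130 on the meibomian arrays. On the lacrimal arrays it lay between 0.188 and 0.446 with a median of 0.379. The groups did not overlap, and the difference was 8.60 ± 0.38 (387-fold, adjusted p = 1.56e-13, n = 6 pools per gland). Lpo, the secreted peroxidase of tears and saliva, ran the other way, from 360 through a median of 463 to 534 on lacrimal arrays and from 0.248 through 0.295 to 0.355 on meibomian arrays. Its difference was -10.58 ± 0.20 (1532-fold, adjusted p = 3.96e-19). By these genes all 12 arrays therefore matched their label as meibomian rather than lacrimal, or the reverse. Since saliva also holds Lpo, the check was not one of lacrimal against salivary glands.

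A total of 8211 probes, for 7156 named genes, entered the comparison. A probe counts as higher in a gland where the Benjamini-Hochberg adjusted p of limma is under 0.05 and the log2 difference is at least 1. By this rule 16.5% of the probes (1356) were higher in the meibomian gland and 24.3% (1996) in the lacrimal gland. The median difference of all probes was -0.15. With no filter on dim probes the counts were 1356 and 3706 of 10499. The other gland lay below the 30th percentile of its arrays in 102 of the meibomian and 469 of the lacrimal calls, and both glands did in 51 calls. Of the calls 1106 and 1598 had no overlap between the 6 arrays of each gland, and 40.1% of all probes tested did not overlap. Meibomian calls were 40.5% of all calls, but 53.0% after quantile normalization (1653 against 1463 probes), which moved the median of all probes from -0.15 to 0.03. The pool spread was wider in the lacrimal gland, with a median standard deviation of 0.50 on the log2 scale against 0.24 in the meibomian gland. Array maxima also differed, at 103 to 188 on meibomian and 498 to 868 on lacrimal arrays. The 100 brightest probes took 16.2% to 22.3% of the summed meibomian signal and 33.6% to 39.5% of the lacrimal signal. Arrays fell into a pair of sets told apart by their values alone, with lacrimal B and meibomian A of both sexes in the set of fewer arrays.

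**Figure D1:**
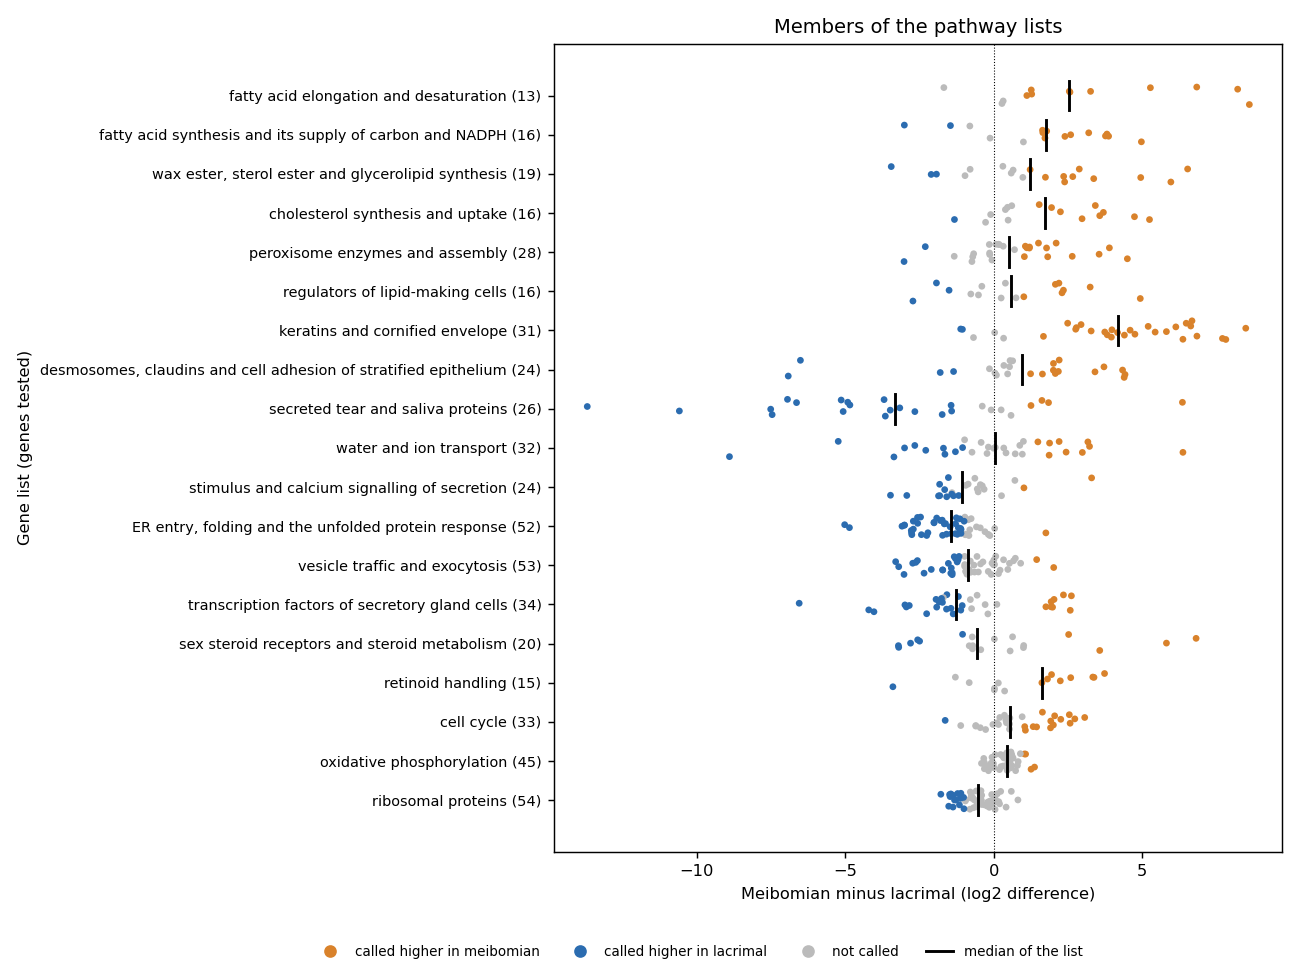
Each point is 1 gene, placed by its meibomian minus lacrimal log2 difference, in 19 gene lists named on the vertical axis with the number of genes tested; orange and blue points were called higher in the meibomian and lacrimal gland, grey points were not called, and the bar is the median. The lipid and keratin lists lie to the right, with medians from 0.51 to 4.16, and the secreted protein, ER and vesicle lists to the left, with medians of -3.32, -1.45 and -0.88.

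The promoter stretches below are shown because the genes they belong to were all higher in the lacrimal gland and share a motif. The ER stress element, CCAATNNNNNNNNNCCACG, is a site through which the unfolded protein response is known to act. It was sought on both strands in the 250 bases before each RefSeq gene start (GRCm38.p6). It lay before 5 of the 29 genes with a promoter entry among the 38 ER and folding genes higher in the lacrimal gland (17.2%). The share was 0.130% of all 27025 genes of the table and 0.174% of the 5762 tested genes with an entry. Among all genes with an entry it lay before 6 of 1311 higher in the lacrimal gland (0.458%) and 0 of 957 higher in the meibomian gland. The list was written to hold genes of the unfolded protein response, so its share describes the list and not the gland. The share among its genes that were not called was not worked out. The capitals mark the motif or its reverse complement, and each run is written 5′ to 3′ along the gene's strand.
Hspa5: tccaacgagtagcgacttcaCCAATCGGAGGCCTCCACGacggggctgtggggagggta
Calr: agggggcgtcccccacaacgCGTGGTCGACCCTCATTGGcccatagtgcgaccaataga
Pdia6: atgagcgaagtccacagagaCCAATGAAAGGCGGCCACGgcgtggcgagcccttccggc
Ero1b: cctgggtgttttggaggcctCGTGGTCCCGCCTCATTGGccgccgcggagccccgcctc
Dnajc3: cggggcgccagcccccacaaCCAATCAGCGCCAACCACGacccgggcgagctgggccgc
They lie at chr2:34772005-34772063 on the plus strand (Hspa5), chr8:84847055-84847113 on the minus strand (Calr), and chr12:17266471-17266529 (Pdia6), chr13:12565662-12565720 (Ero1b) and chr14:118937807-118937865 (Dnajc3) on the plus strand. The motif runs opposite to the gene in Calr and Ero1b. A match is a stretch of letters, not a measured binding site. On the lipid side, the letters TCACNCCAC of a sterol response element were found before none of the 6 cholesterol, 9 fatty acid synthesis or 7 elongation genes with an entry that were higher in the meibomian gland, against 1.22% of all genes. The CCAAT box, which every ER stress element also contains, stood before 37.5% of all genes and 40.3% of the tested ones. It stood before 6 of those 6 cholesterol genes, 7 of the 9 fatty acid synthesis genes and 3 of the 7 elongation genes. Of list genes higher in the lacrimal gland, it stood before 17 of 29 ER, 10 of 16 vesicle and 5 of 16 secreted protein genes. Over all called genes with an entry, the shares were 42.5% on the meibomian and 42.0% on the lacrimal side.

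Enzymes that lengthen and desaturate acyl chains were higher in the meibomian gland in 10 of the 13 genes tested and higher in the lacrimal gland in 0, with a median of 2.54 against -0.13 over all genes tested. Over all genes 17.0% were higher in the meibomian gland and 23.0% in the lacrimal gland. Elovl3, an elongase of sebaceous cells, ran from 85.5 through a median of 103 to 114 on meibomian arrays and from 0.235 through 0.354 to 0.579 on lacrimal arrays. No lacrimal array came near a meibomian one, and the difference was 8.21 ± 0.24 (295-fold, adjusted p = 4.30e-16). Elovl1, which extends saturated chains in many tissues, was at 80.2, 111 and 142 (lowest, median and highest) on meibomian arrays and at 1.21, 2.80 and 4.55 on lacrimal arrays, a difference of 5.27 ± 0.29. Scd3, a desaturase of sebaceous cells that adds a double bond, differed by 6.83 ± 0.28, against 2.56 ± 0.26 for Scd1 and 1.27 for Scd2. Steps of the elongation cycle itself followed, with Hsd17b12, its reductase, at 3.26 ± 0.23 and Hacd2, a dehydratase, at 2.54 ± 0.26. Fads3 was the member that went furthest the other way, at -1.68 ± 1.54 with no call. Its lacrimal values were 1.72 and 1.78 in the B pools and 72.0 to 218 in the other lacrimal pools. Elovl4 reached 80% of the array maximum on all 6 meibomian arrays, so its level there lies close to the top of the scale.

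The supply of fatty acids was higher in the meibomian gland in 11 of 16 genes and higher in the lacrimal gland in 2 (median 1.75). Fasn, the fatty acid synthase, ran from 20.9 through 26.5 to 29.8 on meibomian arrays and from 3.48 through 3.95 to 5.92 on lacrimal arrays, without overlap (2.59 ± 0.19, 6.0-fold, adjusted p = 2.83e-10). Acss2, which makes acetyl-CoA in the cytosol, was at 11.3 to 12.6 against 0.627 to 1.37 (3.76 ± 0.13). Its mitochondrial relative Acss1 went the other way, at 1.25 to 1.87 against 4.09 to 26.7 (-3.01 ± 0.33). Acly, which cleaves citrate for the same pool of acetyl-CoA, differed by 1.72 ± 0.25. Of the carriers of acyl groups, the acyl-CoA binding protein Dbi differed by 3.81 ± 0.25, the skin fatty acid binding protein Fabp5 by 4.97 ± 0.31 and the fat cell form Fabp4 by 1.65 ± 0.36. Dbi and Fabp5 reached 80% of the array maximum on 5 of 6 meibomian arrays.

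Among genes of esters, glycerolipids and droplets, 10 of 19 were higher in the meibomian gland and 3 in the lacrimal gland (median 1.22). Cidea, which fuses lipid droplets, was at 81.4 to 105 with a median of 90.1 on meibomian arrays and at 0.253 to 4.55 with a median of 0.771 on lacrimal arrays (6.52 ± 0.45, 91.8-fold, adjusted p = 1.24e-10). Plin2, a coat protein of droplets, differed by 4.94 ± 0.34 (30.8-fold). The last enzymes of triglyceride synthesis differed less, by 2.35 ± 0.30 for Dgat2 and 1.22 ± 0.15 for Dgat1. Mogat1, an acyltransferase that starts from monoacylglycerol, was at least 5.86-fold higher in the lacrimal gland (-3.45 ± 0.26), since all meibomian arrays held it below their 30th percentile. The wax synthases Awat1 and Awat2, the reductases Far1 and Far2 and the sterol acyltransferase Soat1 were not analysed here. The list therefore speaks mostly of droplets and glycerolipids.

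Cholesterol synthesis was higher in the meibomian gland in 9 of 16 genes and higher in the lacrimal gland in 1 (median 1.73). The 9 genes act after mevalonate is made. Cyp51, the demethylase of lanosterol, ran from 44.9 through 63.4 to 77.8 on meibomian arrays and from 0.965 through 1.65 to 2.59 on lacrimal arrays (5.24 ± 0.23, 37.7-fold, adjusted p = 1.60e-13). Msmo1, which acts after it, differed by 4.73 ± 0.23, the sterol reductase Tm7sf2 by 3.69 ± 0.20 and Hsd17b7 by 3.56 ± 0.31. Fdft1 (2.97 ± 0.23), Sqle (2.24 ± 0.35) and Fdps (1.53 ± 0.22), which act before the first sterol, lay among the lower calls with Sc5d (1.94 ± 0.16), a late enzyme. The late enzymes Ebp (0.60 ± 0.24) and Dhcr7 (0.46 ± 0.25) were not called. Srebf2, the regulator of the pathway, was at 0.310 and 0.237 in the glands and was not called. The exception was Lipa, the lysosomal lipase that frees cholesterol from its esters, at -1.32 ± 0.21 with overlapping arrays.

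Of 28 peroxisomal genes, 13 were higher in the meibomian gland and 2 in the lacrimal gland (median 0.51). Acox2, an oxidase of branched chains, was at 15.6 to 20.9 against 0.633 to 1.22 (4.49 ± 0.23, 22.5-fold, adjusted p = 1.66e-12). Hacl1, a lyase of the alpha-oxidation of branched and hydroxylated chains, was at 83.8 to 122 against 6.11 to 8.96 (3.89 ± 0.17). Phyh, the hydroxylase that opens the same alpha-oxidation path, was lower in the meibomian gland (-3.02 ± 0.23). Its values were 21.4 to 30.3 on the meibomian arrays, 427, 482 and 540 in female lacrimal pools and 57.5, 96.0 and 152 in male lacrimal pools. The difference between the glands was thus larger in females, and the test of the sexes passed (2.55 ± 0.46, adjusted p = 0.0027).

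Regulators of lipid-making cells were higher in the meibomian gland in 7 of 16 genes and higher in the lacrimal gland in 3 (median 0.57). Pparg, the nuclear receptor that drives sebocyte and fat cell maturation, lay within 10.4 to 12 on meibomian arrays and within 0.193 to 0.584 on lacrimal arrays (4.93 ± 0.29, 30.4-fold, adjusted p = 9.46e-12). Prdm1, a repressor found in sebaceous cells, differed by 3.24 ± 0.30, Klf5 by 2.34 ± 0.21 and Cebpa by 2.29 ± 0.19. Mc5r, a melanocortin receptor of exocrine glands, was higher in the lacrimal gland, at 2.37 to 7.58 against 0.435 to 1.12 (-2.72 ± 0.28).

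**Figure D2:**
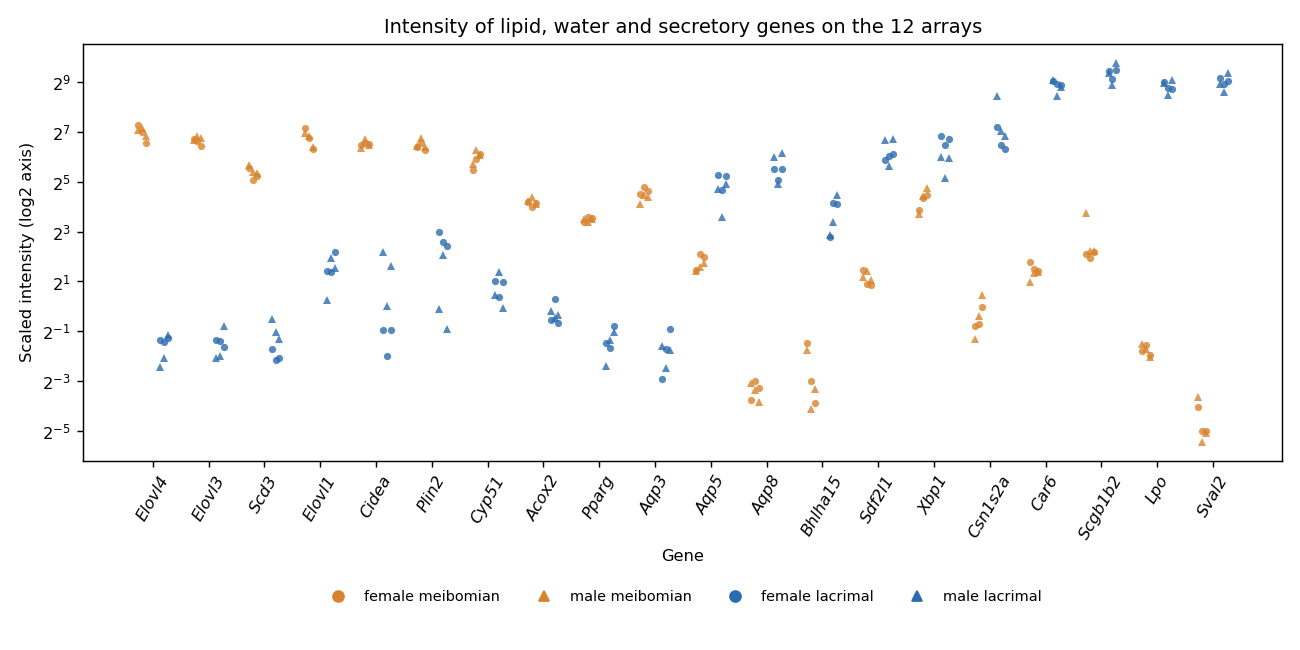
Scaled intensity (log2 axis) of 20 genes on each of the 12 arrays, circles for female and triangles for male pools, orange for meibomian and blue for lacrimal. Glands are to be compared within a gene, not genes with one another: the 2 clouds of points are apart in each of the 20 genes, from Elovl4 at 94.8 to 154 against 0.188 to 0.446 to Sval2 at 0.0234 to 0.0811 against 383 to 658.

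The keratin and cornified envelope list held 26 of 31 genes higher in the meibomian gland and 2 in the lacrimal gland, with a median of 4.16. The list leaves out Krt8 and Krt18, keratins of simple epithelium, which were higher in the lacrimal gland and are given below with the junction genes. Krt10 and Krt1, a keratin pair of the upper layers of skin, ran at 18.4 to 47.4 and 16.9 to 52.2 on meibomian arrays. On lacrimal arrays they were at 0.0297 to 0.482 and 0.119 to 0.544. Krt10 was at least 66.1-fold higher in the meibomian gland (7.69 ± 0.56) and Krt1 102-fold (6.67 ± 0.37). Krt13, a keratin of wet linings such as the conjunctiva, was at least 77.3-fold higher (6.83 ± 0.55), and Sprr1a, a cross-linked envelope protein, 356-fold (8.48 ± 0.46). Trp63, the transcription factor of stratified epithelium, was at 11.3 to 17.4 against 0.249 to 0.962 (4.59 ± 0.23). The named gene with the largest difference on the meibomian side was Lgals7, a galectin of stratified epithelium, at 98.6 to 138 against 0.0371 to 1.11 (9.39 ± 0.62, 672-fold, adjusted p = 6.77e-11). The cells behind these values cannot be told apart here, since ducts, lid skin and conjunctiva all keratinize or stratify. In pooled tissue, fewer cells of a type and less RNA per cell cannot be told apart either.

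Junction genes went both ways. Desmosome, claudin and adhesion genes were higher in the meibomian gland in 12 of 24 and in the lacrimal gland in 4 (median 0.94). Cldn1 and Cldn4, tight-junction proteins of barrier epithelia, were higher in the meibomian gland, Cldn1 by at least 15.2-fold and Cldn4 by 20.9-fold (4.39 ± 0.42), and the desmoglein Dsg1a differed by 4.33 ± 0.54. Gjb1, a gap-junction protein of secretory acini, lay at 6.46 to 16.6 on lacrimal arrays and at 0.0789 to 0.123 on meibomian arrays. That is at least 39.7-fold higher in the lacrimal gland (-6.92 ± 0.19, adjusted p = 1.14e-16). Cldn10, a claudin of ion-conducting epithelia, was at 34.6 to 139 against 0.589 to 1.09 (-6.51 ± 0.27). Krt8 and Krt18, keratins of simple epithelium, were higher in the lacrimal gland too, by 6.69-fold and 11.1-fold.

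Secreted tear and saliva proteins were higher in the lacrimal gland in 18 of 26 genes and in the meibomian gland in 4, with a median of -3.32. Sval2, a small secreted protein of the seminal vesicle antigen family, ran from 383 through 506 to 658 on lacrimal arrays and from 0.0234 through 0.0315 to 0.0811 on meibomian arrays. The meibomian values lay at or near the floor, so the difference of -13.68 ± 0.31 is given as at least 1748-fold (adjusted p = 5.53e-18). Car6, a secreted carbonic anhydrase, was at 345 to 538 against 1.98 to 3.42 (-7.46 ± 0.29), and the casein Csn1s2a at 80.3 to 346 against 0.401 to 1.36 (-7.51 ± 0.29). Scgb1b2, a secretoglobin, was at 475 to 868 against 3.86 to 13.5 (-6.94 ± 0.28) and reached 80% of the maximum on all 6 lacrimal arrays. Probes of close paralogs such as the secretoglobins may share signal. Pigr, which carries IgA into tears, differed by -5.14 ± 0.44 and lactoferrin, Ltf, by -3.16 ± 0.42. Agr2, a folding helper of mucus-making cells, was at 279 to 460 against 11.8 to 18.3 (-4.58 ± 0.21).

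The 4 secreted genes higher in the meibomian gland were Scgb1a1, Lyz1, Lyz2 and Apod. Scgb1a1, best known from airway club cells, was at 13.8 to 21.3 against 0.0987 to 0.551 (at least 42.0-fold, 6.35 ± 0.46). The lysozymes were at 10.7 to 17.1 against 1.95 to 9.17 for Lyz1 (1.84 ± 0.34) and 15.4 to 24.7 against 3.41 to 12.5 for Lyz2 (1.62 ± 0.29). Lyz2 is also a myeloid gene. With Lyz2 itself counted, 4 of 17 myeloid genes were higher in the meibomian gland (23.5%, against 17.0% of all genes). In the lacrimal gland 1 was higher (5.88%, against 23.0% of all genes). The part of myeloid cells in the lysozyme values was not tested.

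The machinery that takes proteins into the endoplasmic reticulum and folds them was higher in the lacrimal gland in 38 of 52 genes and in the meibomian gland in 1, with a median of -1.45. Sdf2l1, a partner of ER chaperones, ran from 49.7 through 67.2 to 105 on lacrimal arrays and from 1.82 through 2.17 to 2.78 on meibomian arrays (-5.02 ± 0.19, 32.4-fold, adjusted p = 1.73e-14). Fkbp11, a prolyl isomerase of secretory cells, differed by -4.86 ± 0.29. Subunits of the signal peptidase and of protein disulfide isomerases followed, with Spcs2 at -3.0 ± 0.24, Pdia5 at -3.01 ± 0.25 and P4hb at -2.76 ± 0.22. Xbp1, the transcription factor of this program, was at 35.9 to 112 against 12.9 to 27.1 (-1.92 ± 0.19). The genes whose promoters are printed above differed by -3.09 ± 0.25 (Dnajc3), -2.26 ± 0.19 (Ero1b), -1.63 ± 0.31 (Calr), -1.29 ± 0.17 (Pdia6) and -1.14 ± 0.21 (Hspa5), without overlap between the glands in any of the 5. Ddit3, a stress factor of the same response, was the 1 gene higher in the meibomian gland (1.75 ± 0.33), with overlap, since male lacrimal B held 5.28 and the other lacrimal pools 0.752 to 1.78. The ER chaperones Hsp90b1 (-0.46 ± 0.18) and Pdia4 (-0.19 ± 0.17) were not called.

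Downstream of the ER, 20 of 53 vesicle genes were higher in the lacrimal gland and 2 in the meibomian gland (median -0.88). After quantile normalization the calls were 13 and 4, with a median of -0.52. Ergic1, of the compartment between ER and Golgi, was at 3.33 to 9.16 against 0.583 to 0.855 (-3.30 ± 0.23). The GTPases of regulated secretion Rab3a (-3.20 ± 0.25), Rab3d (-2.57 ± 0.32) and Rab27a (-2.35 ± 0.29) were all higher in the lacrimal gland without overlap. The vesicle-fusion protein Stx4a, which serves the basal and lateral membrane, was higher in the meibomian gland (2.02 ± 0.35).

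Transcription factors of secretory gland cells were higher in the lacrimal gland in 19 of 34 genes and in the meibomian gland in 8 (median -1.28). Bhlha15 (Mist1), which shapes the secretory apparatus of acinar cells, ran from 6.92 through 13.8 to 22.1 on lacrimal arrays and from 0.0571 through 0.113 to 0.365 on meibomian arrays (-6.55 ± 0.50, 93.7-fold, adjusted p = 6.34e-10). Etv1 differed by -4.21 ± 0.32 and Elf5 by -2.84 ± 0.25, and Foxa2 was at least 9.95-fold higher in the lacrimal gland. Pax6, the master factor of eye and lacrimal gland development, was present in both and 3.58-fold higher in the lacrimal gland, at 8.94 to 21.9 against 3.55 to 5.22 (-1.84 ± 0.19). The meibomian side held Klf4, a factor of skin barrier formation, at 18.1 to 20.1 against 2.63 to 3.62 (2.61 ± 0.32), and Pitx1 (2.57 ± 0.56). Pitx1 was higher in meibomian A than in the other meibomian pools, at 5.85 and 6.35 against 1.32 to 1.95.

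The water and ion transport list was divided, with 9 of 32 genes higher in the meibomian gland, 10 in the lacrimal gland and a median of 0.02. Of its aquaporins, Aqp3, Aqp5 and Aqp8 did not overlap between the glands. Aqp3, which passes glycerol as well as water in skin, was at 17.4 to 27.5 with a median of 22.3 on meibomian arrays and at 0.132 to 0.535 with a median of 0.304 on lacrimal arrays (6.36 ± 0.29, 82.3-fold, adjusted p = 1.60e-13). Aqp5, the apical channel of fluid-secreting acini, ran the other way, from 12 through 28.2 to 38.5 against 2.69 through 3.18 to 4.32 (-3.0 ± 0.21, 8.02-fold, adjusted p = 1.64e-10). Aqp8 lay at 30.3 to 70.3 on lacrimal arrays and below the 30th percentile of every meibomian array, an at least 157-fold difference (-8.90 ± 0.32). Aqp1, of vessels, was at 1.83 and 0.944 and was not called. Of the sodium channel subunits that take salt back from ducts, Scnn1a was 8.97-fold higher in the meibomian gland (3.16 ± 0.23). The potassium channel Kcnk1 was 10.3-fold higher in the lacrimal gland (-3.36 ± 0.21). Kcnn4, a calcium-gated potassium channel of secretion, overlapped (-2.29 ± 0.72), with 2.18 and 2.67 in the B pools and 18.7 to 31.8 in the other lacrimal pools. The chloride channel Cftr was not called, with means of 0.418 and 0.419 and lacrimal arrays from 0.206 to 1.54.

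Receptors and messengers of stimulated secretion were higher in the lacrimal gland in 11 of 24 genes and in the meibomian gland in 2 (median -1.07). Chrm3, the muscarinic receptor through which nerves drive lacrimal secretion, was at 0.251 to 0.847 against 0.0234 to 0.0721 (-3.48 ± 0.34). The levels are low, and with the meibomian arrays below their 30th percentile the bound is 1.53-fold. P2rx4, an ATP-gated channel, stood higher on the scale, at 18.4 to 47.6 against 3.43 to 4.46 (-2.93 ± 0.20, 7.61-fold). Itpr2, a calcium release channel of the ER, was higher in the meibomian gland, at 7.12 to 9.21 against 0.549 to 1.12 (3.29 ± 0.22).

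Steroid and retinoid genes held large differences within small lists. Of 20 steroid genes, 4 were higher in the meibomian gland and 6 in the lacrimal gland (median -0.57, but 0.05 after quantile normalization and 0.02 with probes filtered over the 4 groups). Hsd3b6, a dehydrogenase that makes active steroids from precursors, was at 13.5 to 24.0 against 0.0234, the floor, to 0.598 (6.81 ± 0.61, a size that depends on the floor), and Hsd17b2, which inactivates sex steroids, was at least 25.6-fold higher in the meibomian gland (5.81 ± 0.43). Akr1c18 was higher in the lacrimal gland, at 9.30 to 131 against 5.2 to 10.3 (-2.50 ± 0.50). Of 15 retinoid genes, 8 were higher in the meibomian gland and 1 in the lacrimal gland (median 1.62). They included the retinol and retinal dehydrogenases Rdh16 (3.73 ± 0.34), Adh7 (3.33 ± 0.29) and Aldh1a7 (at least 6.04-fold).

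Cell cycle genes were higher in the meibomian gland in 14 of 33 and in the lacrimal gland in 1 (median 0.53). Mki67, a marker of dividing cells, was at 7.99 to 11.6 on meibomian arrays and at 0.540 to 1.13 on 5 lacrimal arrays, while male lacrimal B held 11.2. Top2a and Birc5 showed the same array, at 6.36 and 9.09 against 0.465 to 0.767 and 0.415 to 0.930 in the other lacrimal pools. Male lacrimal B also held 3.30 of the collagen Col1a1 against 0.685 to 1.25, and 52.8 of the plasma cell gene Jchain against 0.760 to 23.4. Mki67 differed by 3.06 ± 0.42 with all arrays and by 3.65 without male lacrimal B, where 15 genes of the list were higher in the meibomian gland and the median was 0.88.

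The direction of ribosomal protein genes changed with the scaling. Of 54 ribosomal protein genes, 15 were higher in the lacrimal gland and 0 in the other, the median being -0.53. After quantile normalization 1 was higher in the lacrimal gland and 4 in the other, the median then being 0.55. Rpl6 was at 310 to 492 against 102 to 154 (-1.52 ± 0.32) and reached 80% of the array maximum on all 6 meibomian arrays and on 0 lacrimal arrays. Its difference was 0.34 after quantile normalization. Oxidative phosphorylation had 4 of 45 genes higher in the meibomian gland (8.89%, below the 17.0% of all genes; median 0.44), and 12 (median 0.75) after quantile normalization. Leaving out 1 array gave 2 to 5, with 2 without female lacrimal C, male lacrimal B, male meibomian B, male meibomian C or female meibomian B.

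Markers of other tissues moved with the gland. Skeletal muscle genes were higher in the meibomian gland in 28 of 31 and in the lacrimal gland in 0, with a median of 3.86. Tnnc2, a troponin of fast muscle, was at 69.6 to 99.7 against 0.0458 to 0.635 (9.02 ± 0.59, 518-fold), and the muscle calcium pump Atp2a1 at 52.5 to 112 against 0.312 to 0.616 (7.01 ± 0.47). The summed level of the muscle list was 342 to 585 on meibomian arrays and 13.2 to 34.2 on lacrimal arrays. Fibroblast and collagen genes were higher in the meibomian gland in 21 of 25 (summed level 300.4 to 339.9 against 69.4 to 191), and smooth muscle and myoepithelial genes in 6 of 8 (71.2 to 83.7 against 23.6 to 39.3). Hair follicle genes were higher in 8 of 16 and lower in 3 (148 to 195 against 50.5 to 94.0), among them the inner root sheath keratins Krt71 (4.90 ± 0.28) and Krt27 (at least 12.2-fold, 4.08 ± 0.31). The 3 that were lower were the hair keratin-associated Krtap3-1 (-3.13 ± 0.35), the growth factor Fgf5 (-2.12 ± 0.20) and Dlx3 (-1.19 ± 0.22). Conjunctiva and goblet cell genes were higher in 6 of 11 and lower in 5 (158 to 222 against 356 to 578). The goblet cell mucin Muc5ac was at 34.8 to 59.7 against 0.794 to 2.24 (5.08 ± 0.26) and the trefoil peptide Tff1 at 15.6 to 37.7 against 0.196 to 0.629 (5.78 ± 0.45). The 5 members higher in the lacrimal gland were Agr2, Krt18, Krt8, Pax6 and Spdef, the goblet cell transcription factor (-1.76 ± 0.24). These markers stand beside every keratin, junction, aquaporin and lipid value above, and their part in those results was not tested. Adipoq, a defining fat cell gene, was at 3.34 to 5.48 against 0.917 to 7.10 and was not called (0.74 ± 0.32), while Lpl, which muscle and other cells also make, was among the 3 of 6 fat cell genes that were higher in the meibomian gland.

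**Figure D3:**
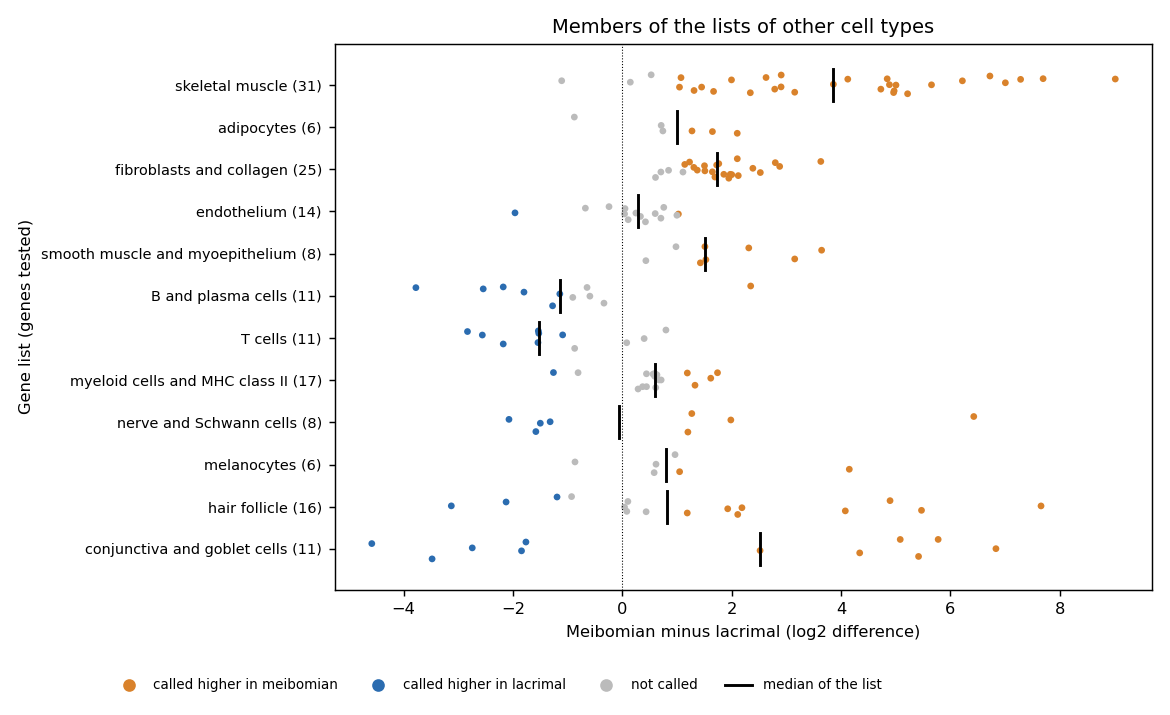
Meibomian minus lacrimal log2 difference of each gene (point) in 12 lists of other cell types, with the number of genes tested on the vertical axis and the list median as a bar; orange, blue and grey as called higher in meibomian, in lacrimal or not called. Skeletal muscle (median 3.86) and fibroblast genes (median 1.73) lie to the right, and B and T cell genes (medians -1.14 and -1.53) to the left.

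Most of the lymphocyte genes called lay on the lacrimal side. Of 11 B and plasma cell genes 6 were higher in the lacrimal gland and 1 in the meibomian gland (median -1.14), and of 11 T cell genes 7 and 0 (median -1.53). Their summed levels were 16 to 85.8 against 10.7 to 14.2 and 10.9 to 23.9 against 5.44 to 6.87. Jchain, which joins secreted IgA, was at 0.760 to 52.8 against 0.430 to 0.629 (-3.77 ± 0.55), and Cd79a, of the B cell receptor, at 10.1 to 56.4 against 3.04 to 6.14 (-2.18 ± 0.42). The 1 gene of the B and plasma cell list that went the other way was Tnfrsf17. Its mean level was 4.55 in the meibomian gland and 0.892 in the lacrimal gland (2.35 ± 0.22). After quantile normalization 3 B cell and 5 T cell genes were higher in the lacrimal gland. The counts were also 3 and 5 with probes filtered over the 4 groups. Some of the genes called were dim in both glands. Meibomian and lacrimal means were 0.0357 and 0.210 for Cd8a and 0.0378 and 0.220 for Ms4a1. These lacrimal means lay below 0.351, the lowest 30th percentile of a lacrimal array. Endothelial genes had 1 call in each direction of 14. Of 6 melanocyte genes 2 were higher in the meibomian gland, with Dct at 5.29 to 7.63 against 0.161 to 0.620 (4.15 ± 0.27). Of 8 nerve and Schwann cell genes 4 were higher in each gland. Egr2, which Schwann cells share with other cells, was at 6.43 ± 0.35, while Sox10, a factor of glia, was at -1.58 ± 0.14 and the glial filament Gfap at -2.07 ± 0.53.

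Beyond the lists, the genes furthest apart on the lacrimal side included transporters and enzymes. Slc27a2, a fatty acid transporter and acyl-CoA synthetase, was at least 141-fold higher in the lacrimal gland (-9.22 ± 0.52), with 158 to 295 in male and 4.15 to 10.9 in female pools. Pnliprp1, a lipase-related secreted protein, was at 451 to 558 in female lacrimal pools and at 0.725, 1.32 and 53.8 in male ones, against 0.194 to 0.245 on meibomian arrays (at least 151-fold, -7.67 ± 1.03). Its test of the sexes missed the threshold (7.33 ± 2.06, adjusted p = 0.0859), and the 53.8 came from male lacrimal B. Haptoglobin, Hp, was at 104 to 438 against 1.35 to 2.73 (-7.10 ± 0.25), and the mucosal chemokine Ccl28 was at least 62.0-fold higher (-7.50 ± 0.28). On the meibomian side the epithelial defensin Defb1 was at least 79.5-fold higher (7.44 ± 0.48), and Sptssb, a subunit that steers sphingolipid synthesis to longer chains, at least 85.7-fold (7.36 ± 0.22). Gsdma, a gasdermin of skin and hair follicle, was 202-fold higher (7.66 ± 0.22).

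Did the gland difference depend on sex? It differed between males and females at 151 probes (1.84% of those tested, adjusted p under 0.05 by limma), and at 655 with an unadjusted p under 0.05. In a paired fit with a random replicate block for the pools of one gland and letter, which pairs males with females, the count was 526. Within the set of 8 of these arrays that excludes lacrimal B and meibomian A it was 100. At 149 of the 151 probes the sexes were further apart in the lacrimal than in the meibomian gland, and at 52 the glands differed in opposite directions in the sexes. The share over all probes tested was not worked out, so the 149 cannot be set against it. The pool spread was also wider in the lacrimal gland (median standard deviation 0.50 against 0.24). Ly6f, a surface protein of the Ly6 family, was at 104, 138 and 273 in male and 0.482, 0.739 and 1.79 in female lacrimal pools, and at 0.0709 to 0.135 on all meibomian arrays. Asgr1, an asialoglycoprotein receptor subunit, was reversed, with 31.3, 36.9 and 77.6 in female and 0.488, 0.888 and 1.40 in male lacrimal pools. Cdo1, the dioxygenase that breaks down cysteine, was higher in the lacrimal gland in females (18.4 to 23.9 against 6.82 to 12.3) and higher in the meibomian gland in males (7.32 to 10.6 against 0.834 to 1.76). Members of the gene lists were called 10 times, counted list by list. Adh1 was 1 of these members, at 138 to 261 in female and 12.7 to 30.9 in male lacrimal pools and 49.8 to 70.8 on meibomian arrays. The share of list members called was not worked out, so the 10 cannot be set against the 1.84% of all probes.

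**Figure D4:**
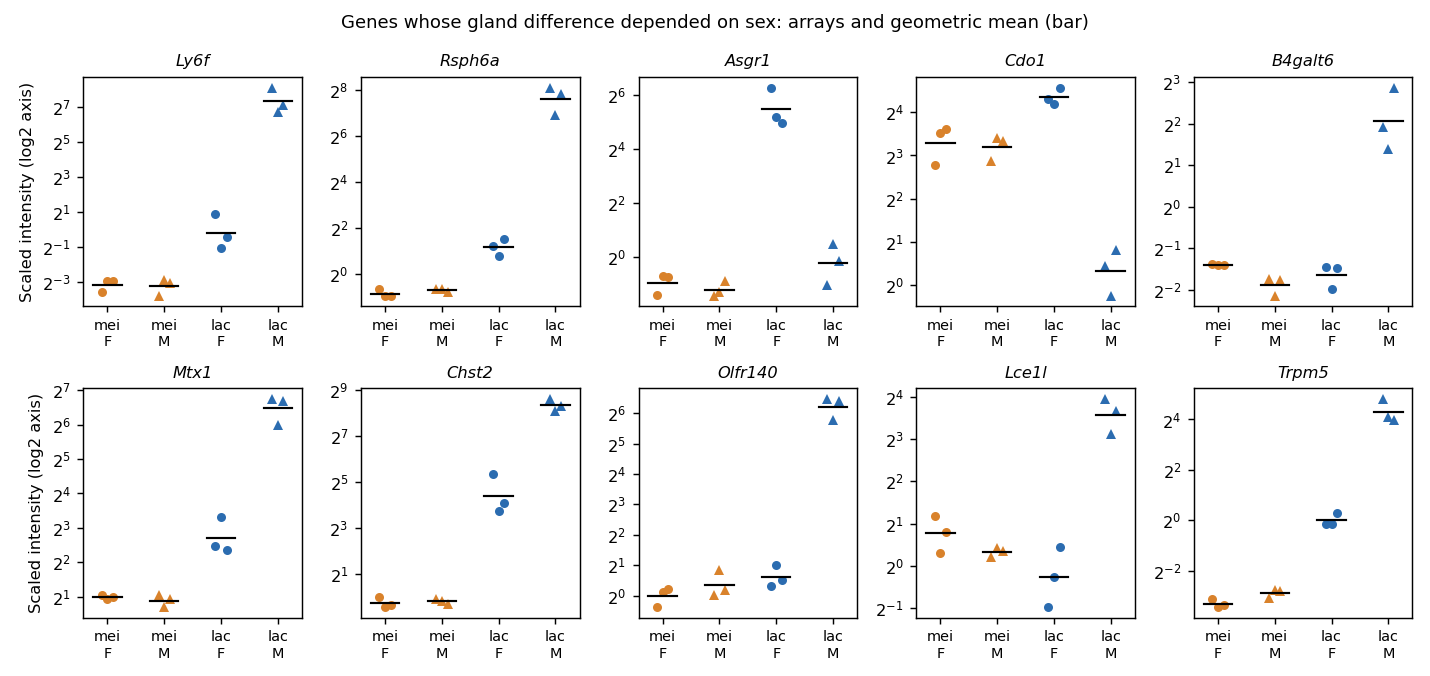
Scaled intensity (log2 axes that differ between panels) of the 10 genes with the smallest p for a sex-dependent gland difference, for meibomian (mei, orange) and lacrimal (lac, blue) pools of females (F, circles) and males (M, triangles), with the geometric mean of 3 pools as a bar. In all 10 genes the lacrimal sexes lie further apart than the meibomian sexes, as for Ly6f at 0.861 and 158 against 0.110 and 0.104.

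Set beside the salivary glands, the genes fell into several patterns. Both glands are here compared with the mean of the 3 salivary glands, so the 2 contrasts share those arrays. Elovl4 was 9.02 ± 0.33 above the salivary mean in the meibomian gland and 0.42 ± 0.33 in the lacrimal gland. Pparg (3.81 ± 0.24 against -1.12 ± 0.24), Cyp51 (5.75 ± 0.20 against 0.51 ± 0.20) and Aqp3 (6.66 ± 0.24 against 0.30 ± 0.24) also stood apart in the meibomian gland. In contrast, Sval2 (8.06 ± 0.27 lacrimal), Aqp8 (8.30 ± 0.27) and Csn1s2a (7.43 ± 0.25) stood apart in the lacrimal gland. Csn1s2a was at -0.08 ± 0.25 in the meibomian gland, and Sval2 and Aqp8 lay below the 30th percentile of every meibomian array. Aqp5 and Bhlha15 were low in the meibomian gland (-2.95 ± 0.18 and -5.22 ± 0.43) and at 0.05 ± 0.18 and 1.33 ± 0.43 in the lacrimal gland. Gjb1 was at 0.44 ± 0.16 in the lacrimal gland and below the 30th percentile of every meibomian array. Lpo was below the salivary mean in the meibomian gland (-8.86 ± 0.17) and above it in the lacrimal gland (1.72 ± 0.17). Amy1, amylase, was below it in both (-8.89 ± 0.57 and -2.25 ± 0.57). The muscle gene Tnnc2 was also bright outside the eyelid, at 48.8 in the parotid gland against 1.49 and 0.199 in the submandibular and sublingual glands.

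**Figure D5:**
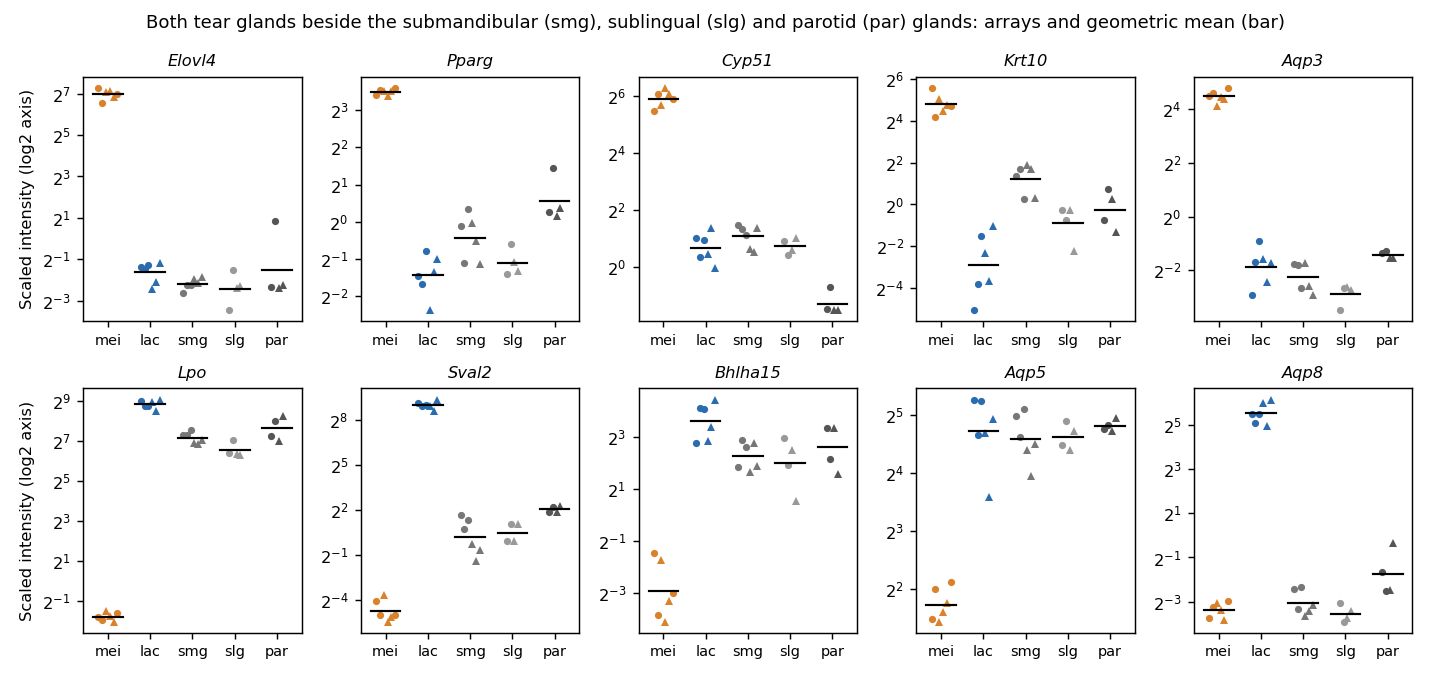
Scaled intensity (log2 axes that differ between panels) of 10 genes on all 26 arrays by gland, circles for female and triangles for male pools, with the geometric mean as a bar. Elovl4, Pparg, Cyp51, Krt10 and Aqp3 are highest in the meibomian gland, while Aqp5 has means of 24.1 to 28.1 in the salivary and lacrimal glands and 3.30 in the meibomian gland.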

How the data were processed

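The values deposited by the authors are 1 scaled intensity per probe and array; small negative values occur, as after a background subtraction, but the platform, labelling, scanner and scaling are not given in the sources used here. Cells of -1 (0.821%) were taken as missing. Values under 0.0234, the 1st percentile of positive values, were raised to it and log2 taken. A probe was kept if it reached its array's 30th percentile on all measured arrays of at least 1 of the 10 sex and gland groups. All 26 arrays were fitted with 10 group means in limma 3.58.1 (R 4.3.3), checked on simulated data. A fold is given as "at least" where a gland lay below that percentile on every array, against the percentile. Of 10500 probes 8983 have 1 gene symbol in the platform's annotation, and 8975 were updated through RefSeq (GRCm38.p6). Of several probes of a gene the brightest was used. Of 102 such genes 64 had the same call on all probes and 4 had opposite calls, and in the others some probes were called and some were not. The members and lists were chosen with earlier results of these data known. Named genes are the 15 of largest difference in each direction without overlap, up to 4 called members per list, and the 10 of smallest p for the sexes; other members were chosen after their values were seen. Deviations from the group means correlated between female and male pools of a gland and letter (0.441 to 0.816 over 6 pairs) but not between the glands (-0.394 to 0.0747). Both sexes of a letter lie in the same array set, and letters A and B lie in opposite sets in the glands. These correlations therefore cannot tell a pairing of pools from the array sets. Deviations from a shared group mean are also not independent. Protein features were not analysed here. Precision is limited by the number of arrays.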

Additional observations from a re-analysis of the deposited data

Results flagged for a closer look

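The difference between the glands depended on sex, by limma's test of the sex and gland interaction, most clearly in 10 genes. Values are the male minus the female gland difference on the log2 scale. It was -7.60 for Ly6f, -6.27 for Rsph6a, -5.24 for Olfr140, -4.29 for Lce1l, -4.19 for B4galt6, -3.87 for Trpm5, -3.86 for Mtx1 and -3.85 for Chst2, all of which were higher in male than in female lacrimal pools. It was 5.46 for Asgr1 and 3.94 for Cdo1, both higher in female lacrimal pools. Chst2, a sulfotransferase, was at 276 to 395 in male and 13.5 to 40.9 in female lacrimal pools, and Trpm5, a cation channel of chemosensory cells, at 15.7 to 28.2 and 0.901 to 1.23. The names of Olfr140 and Rsph6a are those of the platform's annotation. Groups of 3 pools are too small for a test of single outlying arrays.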

How the results depend on the processing

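The counts of probes higher in each gland stayed within 1.5 times the main ones under the alternatives run except 1. With no filter on dim probes, 3706 of 10499 probes were higher in the lacrimal gland and 1356 in the meibomian gland. Leaving out 1 array gave 1317 to 1395 and 1909 to 2176 probes, and 111 to 180 for the sexes. The count for the sexes was 526 with the gland and letter as a random replicate block (consensus correlation 0.563) and 100 within the larger array set; with the letter as a fixed replicate block it was 165, beside 1356 and 1996. The blocks changed no other count past 1.5 times. Of 141 named genes, Rpl10 turned from -1.49 to 0.77 with missing cells at the floor and to 0.11 under quantile normalization, and Rpl6 from -1.52 to 0.34. Quantile normalization also lost the calls of Rplp0, Ly6c1, Ms4a1, Cd8a and Adgre1, and missing cells at the floor that of Lman1 (-1.42). Calls were also lost for Tek, Adgre1 and Kit with the pseudocount, for Gfap within the larger array set, and for Atp5l, Atp5k, Ndufa5, Tek, Kit and Lce1l on leaving out 1 array, each keeping its sign. All 10 genes of the sexes kept their call. The cause of these changes was not tested. Of 31 list medians 27 kept their sign throughout; the exceptions, water and ion transport, steroid, ribosomal and nerve genes, ranged from -0.10 to 0.58, -0.78 to 0.05, -0.64 to 0.55 and -0.37 to 1.2.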
